A study of Homo sapiens with 12 samples.

Results

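The genes described here are 10 feedback regulators of mitogen-activated protein (MAP) kinase signalling: the MAP kinase phosphatases DUSP1, DUSP2, DUSP4, DUSP5, DUSP6, DUSP8 and DUSP10, and the Sprouty-type inhibitors SPRY2, SPRY4 and SPRED1. They were taken by gene name from a table of 58735 genes, and all 10 were found. The names were picked with earlier results on these same libraries known, and the rule does not record which values weighed in the choice. Levels, changes and adjusted p-values of these 10 genes are therefore a description of the 12 libraries, and their counts are no evidence for the family. Poly(A) RNA was sequenced from 2 human liver tumour lines by their labels, Huh7 (hepatocellular carcinoma) and HepG2 (hepatoblastoma). The groups were Huh7 with geniposide, Huh7 untreated, HepG2 with geniposide and HepG2 untreated, all collected at 48 h, with 3 samples each. Geniposide is an iridoid glycoside of gardenia fruit, and the sources used here do not give its dose. Whether the 3 samples of each group are separate cultures is not stated, so p-values measure only how far these samples spread, and that spread may be technical.

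MAP kinases (ERK, JNK and p38) are switched on by phosphorylation of a threonine and a tyrosine, and dual-specificity phosphatases of the DUSP family remove both phosphates. Many of these genes are themselves transcribed in response to the kinases, so that the pathway limits its own output. Sprouty and SPRED proteins act higher up, between growth factor receptors and RAF, and are also induced by the signal they restrain. In hepatocellular carcinoma this layer of RAS-ERK inhibitors has often been found at low levels.

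Libraries held 15056655 to 17211659 fragments in genes. The liver labels were not borne out by defining hepatocyte transcripts. CPS1 alone of 12 markers averaged 1 FPKM or more in any group, and APOB was at 0 in all 4. Groups are therefore called Huh7-labelled and HepG2-labelled. FPKM are fragments scaled to gene length and to a total per library that the deposited values imply. That total was 1.09 to 1.17 times the fragments in genes in Huh7-labelled libraries, and 0.895 to 0.914 times in HepG2-labelled libraries. FPKM levels set between the lines carry this difference in scaling. Summed cholangiocyte markers (5 genes) were 72.4 to 75.9 FPKM with geniposide against 275 to 288 FPKM untreated in HepG2-labelled libraries, and 2.46 to 3.95 FPKM with geniposide against 3.50 to 4.36 FPKM untreated in Huh7-labelled libraries. Summed fibroblast markers (6 genes, COL1A2 at 0) were 104 to 107 FPKM with geniposide against 71.9 to 73.4 FPKM untreated in HepG2-labelled libraries, and 5.16 to 7.44 FPKM with geniposide against 4.87 to 5.19 FPKM untreated in Huh7-labelled libraries. Of the 5 cholangiocyte markers, only KRT7 and KRT19 averaged 1 FPKM or more in the untreated HepG2-labelled group. Only KRT7 did so in the treated one. SOX9 was the only such marker in both Huh7-labelled groups, with KRT7 at 0. The cholangiocyte sums thus rest on few genes, which differ between the lines, and whether they reflect that cell type was not tested. No endothelial marker of 5 averaged 1 FPKM in any group. The part of these markers in the results below was not tested, and in bulk RNA fewer cells of a type and less RNA per cell cannot be told apart. The third treated Huh7-labelled library stood apart over the whole table, with a chi-square per degree of freedom of 43.4 and 44.9 against libraries 1 and 2, which differed from each other by 3.01. When it was left out, 7154 genes in place of 5357 were called in the Huh7-labelled line, 8342 in place of 6602 in the HepG2-labelled line, which shares the estimate of spread, and 6170 in place of 4317 for the difference between the lines. Rescaling to TPM moved the median change of all tested genes by 0.08 (Huh7-labelled) and 0.07 (HepG2-labelled) in the treatment comparisons and by -0.27 on the log2 scale between the untreated lines. With it, rises made up 61.6% of the Huh7-labelled calls in place of 47.5% as deposited, 58.1% in place of 49.3% of the HepG2-labelled calls, and 36.6% in place of 50.2% of the calls between untreated lines.

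With geniposide, the 10 genes moved in mixed directions in Huh7-labelled libraries and mostly upwards in HepG2-labelled libraries. Changes are given as differences in log2(FPKM + 1) ± SE from limma with Benjamini-Hochberg adjustment over all genes tested, and a gene is called at an adjusted p under 0.05. On this scale the change of genes at about 1 FPKM or less is understated. In Huh7-labelled libraries 2 of the 10 rose (DUSP1 and DUSP8) and 3 fell (DUSP2, DUSP5 and SPRED1), where 16.4% of all 15518 genes past a filter of 1 FPKM rose and 18.1% fell (34.5% called in either direction, and 14.5% of genes without the filter). In HepG2-labelled libraries 6 rose (DUSP1, DUSP5, DUSP6, DUSP10, SPRY2 and SPRED1) and 1 fell (DUSP2), where 21.0% of filtered genes rose and 21.5% fell (42.5% in either direction, and 17.4% of unfiltered genes). DUSP6 and SPRY4 were below the filter and come from the unfiltered fit, while the other 8 passed it. DUSP4 passed it through the HepG2-labelled libraries alone.

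**Figure D1:**
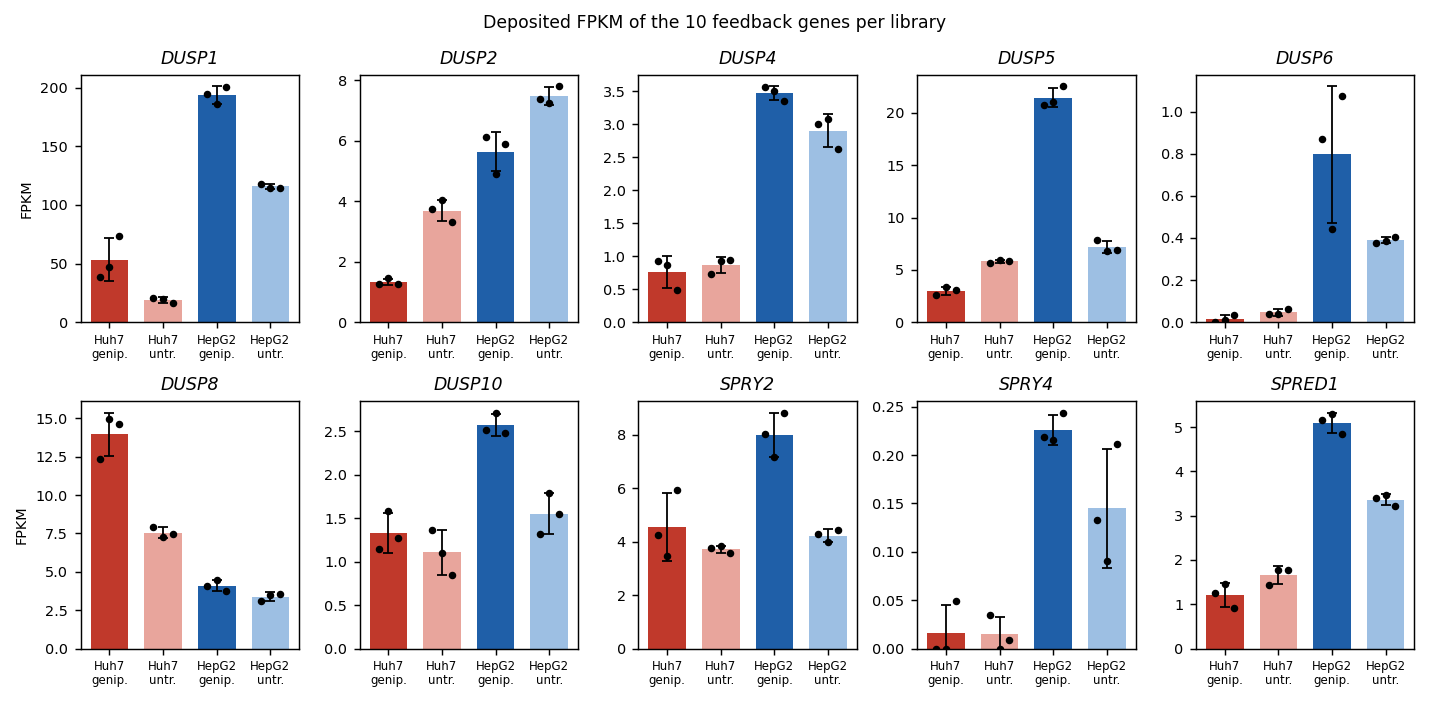
Deposited FPKM (vertical axes, linear, each gene on its own scale) of the 10 genes. Bars are group means, error bars SD and points the 3 libraries of each group (genip., geniposide; untr., untreated). DUSP1 was at 38.9 to 73.9 FPKM with geniposide against 16.1 to 20.7 FPKM untreated in Huh7-labelled libraries, while DUSP5 was below its untreated libraries there and above them in HepG2-labelled libraries.

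DUSP1, a nuclear phosphatase induced within minutes by stress and growth factors that acts on p38 and JNK as well as ERK, was the most abundant of the 10 genes in every group mean and rose in both lines. It stood at 38.9, 47.2 and 73.9 FPKM in treated against 20.7, 19.5 and 16.1 FPKM in untreated Huh7-labelled libraries. In HepG2-labelled libraries it stood at 195, 186 and 201 FPKM with geniposide and at 118, 115 and 114 FPKM untreated. All treated libraries lay above all untreated libraries of the same line, and the third treated Huh7-labelled library was the highest of its group. The changes were 1.41 ± 0.18 (adjusted p = 0.000231) in Huh7-labelled and 0.74 ± 0.18 (adjusted p = 0.00742) in HepG2-labelled libraries, with ratios of the means of 2.84 and 1.67. When the third treated library was left out, the Huh7-labelled change was 1.16 (adjusted p = 1.70e-05). The difference between the effects, HepG2-labelled minus Huh7-labelled, was -0.68 ± 0.26 (adjusted p = 0.0741). Leaving out treated Huh7-labelled library 1 made it pass (-0.87, adjusted p = 0.0148), as did leaving out library 3 (-0.42, adjusted p = 0.0325). DUSP1 (ENSG00000120129) lies on the minus strand of chromosome 5 from 172768090 to 172771195 in hg38. The antisense gene AC022217.3, which overlaps all of it, reached at most 0.472 FPKM, and the library protocol does not separate strands.

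The 250 bases before the start of DUSP1 and of DUSP8 are shown because these are the genes that rose in Huh7-labelled libraries, and because both hold a full cAMP response element, TGACGTCA, a motif bound by the CREB and ATF families. Capitals mark this element and its half-site TGACG on either strand. The sequences are RefSeq's (GRCh38.p14), 5′ to 3′ on the gene's own strand, from chr5:172771196-172771445 and chr11:1572272-1572521, both minus strand.
DUSP1: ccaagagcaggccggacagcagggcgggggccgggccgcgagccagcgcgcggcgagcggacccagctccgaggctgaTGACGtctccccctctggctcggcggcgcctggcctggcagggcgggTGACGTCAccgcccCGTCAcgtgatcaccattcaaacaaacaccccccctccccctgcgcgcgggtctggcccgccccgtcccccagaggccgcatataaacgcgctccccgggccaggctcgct
DUSP8: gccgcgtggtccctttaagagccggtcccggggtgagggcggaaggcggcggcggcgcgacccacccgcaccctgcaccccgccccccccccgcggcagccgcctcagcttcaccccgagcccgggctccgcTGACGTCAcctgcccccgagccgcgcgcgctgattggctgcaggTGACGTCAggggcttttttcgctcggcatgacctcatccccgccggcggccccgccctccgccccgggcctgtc
DUSP1 held the element at -125 to -118 relative to the start, with further half-sites at -172 to -168 and -111 to -107. DUSP8 held it at -118 to -111 and again at -74 to -67, counted from a RefSeq start that lies 351 bases upstream of the start in the deposited table. Of the 10 genes 8 were matched to a promoter entry (all but DUSP4 and DUSP5). For SPRY4, DUSP6, SPRED1 and DUSP10 the RefSeq start lay downstream of the start in the deposited table (-2208, -770, -510 and -87 bases). Their windows thus lie inside the gene as deposited, that of DUSP10 in part. The full element was in 2 of the 8 windows and in 1.65% of all 35116 promoters of the same length, and the half-site, which each full element contains on both strands, in 4 of 8 and 21.2% of all. The windows of DUSP1 and DUSP8 were 74.4% and 76.8% G or C, and the median of all promoters was 58%. These shares were not matched for that. Both windows are shown partly for the element, so the count is no support for it, and its part in the rises was not tested. The TATA box letters TATAAA were in DUSP1 alone (10.7% of all), and the E-box CACGTG in DUSP1, where it shares 2 bases with a half-site, and in DUSP2 (6.34% of all). The AP-1 letters TGANTCA, the ETS letters CCGGAAGT and the CArG box, searched on both strands, were in none of the 8 windows and in 6.57%, 3.42% and 1.16% of all. These are matches of letters, not shown sites.

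DUSP5, a nuclear phosphatase selective for ERK, moved in opposite directions in the lines. It stood at 2.62, 3.36 and 3.06 FPKM in treated against 5.65, 5.97 and 5.84 FPKM in untreated Huh7-labelled libraries. In HepG2-labelled libraries it stood at 20.8, 21.1 and 22.5 FPKM with geniposide and at 7.81, 6.78 and 6.85 FPKM untreated. The groups did not overlap in either line, and libraries within a group lay close together. The Huh7-labelled change was -0.77 ± 0.07 (adjusted p = 4.42e-05) and the HepG2-labelled change 1.46 ± 0.07 (adjusted p = 3.63e-07). Between the lines, the effects differed by 2.23 ± 0.11 (adjusted p = 1.50e-06), and all 3 calls held in every fit run. A processed copy of the gene, DUSP5P1, was at 0.943 ± 0.589 FPKM with geniposide and 0.606 ± 0.108 FPKM untreated in Huh7-labelled libraries, and at 4.92 ± 0.137 FPKM with geniposide and 3.02 ± 0.354 FPKM untreated in HepG2-labelled libraries (SD, n = 3 each). The sources used here do not say how fragments were shared between gene and copy, so the split of their levels is uncertain.

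DUSP2, a nuclear phosphatase best known from activated lymphocytes, fell in both lines. Its levels were 1.25, 1.45 and 1.28 FPKM in treated against 3.73, 4.03 and 3.31 FPKM in untreated Huh7-labelled libraries. In HepG2-labelled libraries it stood at 6.12, 4.90 and 5.89 FPKM with geniposide and at 7.38, 7.26 and 7.80 FPKM untreated. Every treated library lay below every untreated library of its line. The falls were of 1.01 ± 0.08 (adjusted p = 1.54e-05) and 0.36 ± 0.08 (adjusted p = 0.00508) on the log2 scale, and the treated means were 0.359 and 0.753 times the untreated means in Huh7-labelled and HepG2-labelled libraries. The difference between the effects was 0.65 ± 0.12 (adjusted p = 0.00255). The ratio of DUSP5 to DUSP2 FPKM, which no scaling of a library can alter, was 2.10 to 2.39 with geniposide against 1.48 to 1.76 untreated in Huh7-labelled libraries, and 3.40 to 4.30 with geniposide against 0.878 to 1.06 untreated in HepG2-labelled libraries.

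DUSP4, a close nuclear relative of DUSP1, was low and was called in neither line. It averaged 0.762 ± 0.244 FPKM in treated and 0.871 ± 0.121 FPKM in untreated Huh7-labelled libraries (SD, n = 3 each). In HepG2-labelled libraries the averages were 3.48 ± 0.102 FPKM with geniposide and 2.91 ± 0.249 FPKM untreated. The groups overlapped in Huh7-labelled libraries (-0.09 ± 0.10, adjusted p = 0.526) and did not in HepG2-labelled libraries (0.20 ± 0.10, adjusted p = 0.150). The HepG2-labelled change passed without the third treated Huh7-labelled library, whose spread all groups share (adjusted p = 0.0307).

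DUSP6, the cytoplasmic ERK phosphatase that is a standard readout of ERK activity, was near 0 in Huh7-labelled libraries and low in HepG2-labelled ones. Huh7-labelled libraries held 0, 1 and 3 fragments of it with geniposide and 3, 3 and 5 untreated, which is at about the 3 fragments that a count of 0 allows. HepG2-labelled libraries held 59, 29 and 78 fragments with geniposide (0.871, 0.442 and 1.08 FPKM) and 26, 27 and 27 untreated (0.377, 0.384 and 0.405 FPKM). Treated HepG2-labelled libraries were all higher, the second of them by little. The change was 0.35 ± 0.11 (adjusted p = 0.0483) and is fragile. It was called in 4 of 19 fits, and leaving out any single library except treated HepG2-labelled library 2 ended the call (adjusted p 0.0567 to 0.145). The effects in the lines differed by 0.40 ± 0.15 (adjusted p = 0.149), and it passed without treated HepG2-labelled library 2 (0.55, adjusted p = 0.00257).

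DUSP8 and DUSP10, which act mainly on JNK and p38, were each called in 1 line, with estimates above 0 in both. DUSP8 stood at 12.3, 14.9 and 14.6 FPKM in treated against 7.94, 7.27 and 7.44 FPKM in untreated Huh7-labelled libraries, with no overlap (0.80 ± 0.08, adjusted p = 5.78e-05). In HepG2-labelled libraries it stood at 4.10, 4.45 and 3.76 FPKM with geniposide and at 3.07, 3.50 and 3.58 FPKM untreated. These groups did not overlap either, but the change of 0.22 ± 0.08 missed the threshold (adjusted p = 0.0509). It passed without treated Huh7-labelled library 1, 2 or 3 (adjusted p = 0.0258, 0.0493 and 0.0381) or treated HepG2-labelled library 3 (adjusted p = 0.0381), and with TPM scaling (adjusted p = 0.0187), in 7 of 20 fits in all. The difference between the effects was -0.58 ± 0.12 (adjusted p = 0.00438). DUSP8 is the 1 gene of the 10 that was lower in HepG2-labelled than in Huh7-labelled libraries when untreated. Its processed copy DUSP8P5 was at 1.56 to 3.10 FPKM over all libraries, and the antisense gene KRTAP5-AS1 at its end at 0.144 to 0.973 FPKM.

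DUSP10 stood at 2.51, 2.71 and 2.48 FPKM in treated against 1.31, 1.79 and 1.55 FPKM in untreated HepG2-labelled libraries, with no overlap (0.49 ± 0.11, adjusted p = 0.00418). In Huh7-labelled libraries it averaged 1.33 ± 0.229 FPKM with geniposide and 1.11 ± 0.259 FPKM untreated, and the groups overlapped (0.15 ± 0.11, adjusted p = 0.324). HepG2-labelled minus Huh7-labelled, the effects differed by 0.34 ± 0.15 (adjusted p = 0.129), so the lines were not shown to differ.

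**Figure D2:**
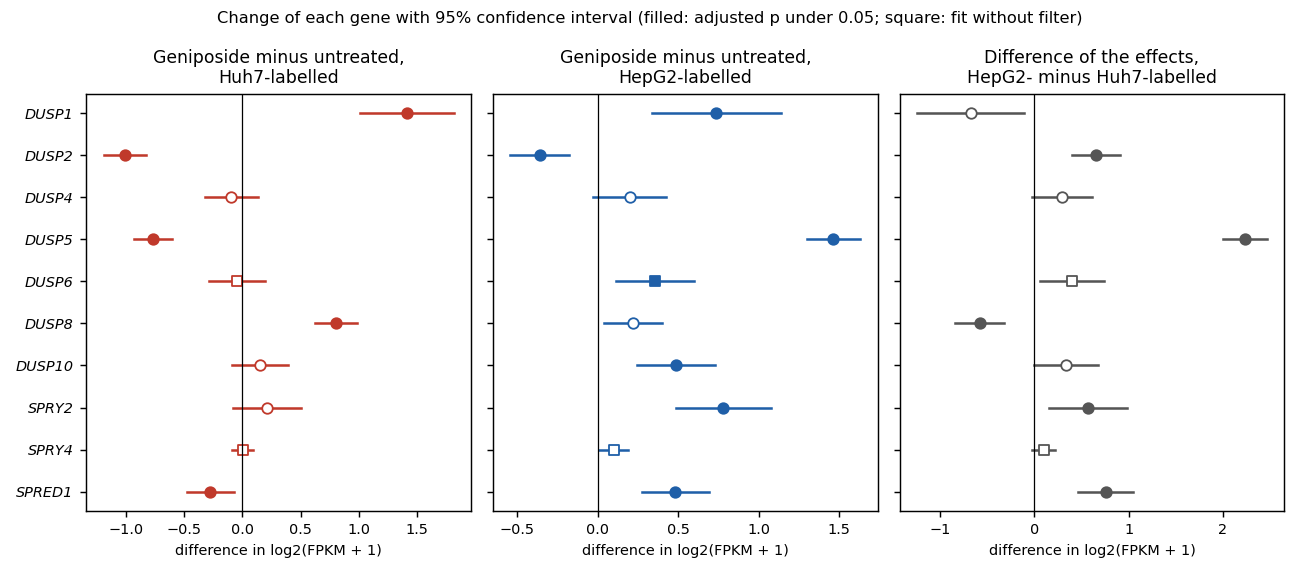
Change of each gene as a difference in log2(FPKM + 1) (horizontal axes, each on its own scale), as the estimate with its 95% confidence interval from the limma fit to 12 libraries. Filled symbols passed an adjusted p of 0.05 and squares come from the fit without a filter. DUSP5 lies at -0.77 in Huh7-labelled and at 1.46 in HepG2-labelled libraries.

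Among the Sprouty-type inhibitors, SPRY2 and SPRED1 rose in HepG2-labelled libraries. SPRY2, which blocks receptor signalling to RAS and RAF, stood at 8.01, 7.16 and 8.81 FPKM in treated against 4.27, 3.97 and 4.44 FPKM in untreated HepG2-labelled libraries, with no overlap (0.78 ± 0.13, adjusted p = 0.000794). In Huh7-labelled libraries it stood at 4.23, 3.47 and 5.93 FPKM with geniposide and at 3.74, 3.83 and 3.56 FPKM untreated. Treated libraries lay on both sides of the untreated ones there, with the third far above (0.21 ± 0.13, adjusted p = 0.253). That change was 0.04 (adjusted p = 0.766) without the third treated library and 0.35 (adjusted p = 0.0426) without the second. The difference between the effects was 0.57 ± 0.19 (adjusted p = 0.0448), called in 4 of 19 fits. With treated Huh7-labelled library 3 left out it was 0.74 (adjusted p = 0.000966). Leaving out any other single library, treated HepG2-labelled library 2 excepted, ended the call (adjusted p 0.0676 to 0.0968).

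SPRED1, a membrane-bound inhibitor that brings neurofibromin to RAS, stood at 5.16, 5.29 and 4.85 FPKM in treated against 3.40, 3.46 and 3.23 FPKM in untreated HepG2-labelled libraries. The groups did not overlap (0.48 ± 0.09, adjusted p = 0.00175). In Huh7-labelled libraries it stood at 1.26, 1.45 and 0.905 FPKM with geniposide and at 1.43, 1.77 and 1.78 FPKM untreated, and the groups overlapped. The Huh7-labelled change of -0.28 ± 0.09 passed (adjusted p = 0.0416) in 5 of 19 fits. Leaving out any single library except untreated Huh7-labelled library 1 or treated Huh7-labelled library 2 ended it (adjusted p 0.0521 to 0.129). The gap between the effects in the lines was 0.76 ± 0.13 (adjusted p = 0.00219) and was called in every fit.

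SPRY4, another ERK-induced Sprouty, was close to the counting floor. Huh7-labelled libraries held 0, 0 and 6 fragments with geniposide and 4, 0 and 1 untreated. HepG2-labelled libraries held 21, 20 and 25 fragments with geniposide (0.219, 0.215 and 0.243 FPKM) and 13, 9 and 20 untreated (0.133, 0.0903 and 0.212 FPKM). The HepG2-labelled groups just failed to overlap, and the change of 0.10 ± 0.04 did not pass (adjusted p = 0.133). It passed without untreated HepG2-labelled library 3 (0.14, adjusted p = 0.0164). The antisense gene SPRY4-AS1 reached 0.0755 FPKM, so part of this low signal cannot be assigned to a strand.

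The difference between the effects in the 2 lines was called for 5 of the 10 genes, 4 on the higher side in HepG2-labelled libraries (DUSP2, DUSP5, SPRY2 and SPRED1) and 1 on the lower side (DUSP8, joined by DUSP1 without treated Huh7-labelled library 1 or 3). Over all filtered genes 14.1% were called on the higher and 13.7% on the lower side (27.8% in all, and 10.5% of unfiltered genes). Treated and untreated HepG2-labelled libraries did not overlap for any of the 10 genes, 9 with treated libraries above (29.4% of filtered genes) and 1 with them below (29.4%), beside 58.9% of filtered and 30.4% of unfiltered genes in either direction. Huh7-labelled libraries did not overlap for 5 of the 10, 2 with treated libraries above (DUSP1 and DUSP8, 21.3% of filtered genes) and 3 with them below (DUSP2, DUSP5 and, at the counting floor, DUSP6, 22.6%), beside 43.9% of filtered and 24.7% of unfiltered genes in either direction. The median change of the 10 was -0.02 in Huh7-labelled and 0.42 in HepG2-labelled libraries, and that of all filtered genes was 0.00 in both.

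Untreated, HepG2-labelled libraries held more of 8 of the 10 genes than Huh7-labelled ones and less of DUSP8, where 36.1% of filtered genes were higher and 35.8% lower (71.8% in all, and 38.2% of unfiltered genes). Libraries of the lines did not overlap for 9 of the 10, 8 of them higher and 1 lower in HepG2-labelled libraries, where 40.1% of filtered genes lay above and 40.1% below (80.2% in all, and 47.5% of unfiltered genes). DUSP10 was the 1 that overlapped. DUSP1 averaged 116 ± 2.14 FPKM in HepG2-labelled and 18.8 ± 2.38 FPKM in Huh7-labelled untreated libraries (SD, n = 3 each), a ratio of 6.16 and a difference of 2.57 ± 0.18 (adjusted p = 2.12e-07). DUSP2 averaged 7.48 ± 0.283 FPKM in HepG2-labelled against 3.69 ± 0.359 FPKM in Huh7-labelled libraries, and SPRED1 3.36 ± 0.121 FPKM in HepG2-labelled against 1.66 ± 0.203 FPKM in Huh7-labelled ones (adjusted p = 2.90e-06 and 3.36e-05). The averages of DUSP4 given above differed by 1.06 ± 0.10 (adjusted p = 2.92e-06). DUSP8 was at 3.38 ± 0.272 FPKM in HepG2-labelled libraries and at 7.55 ± 0.348 FPKM in those labelled Huh7 (-0.97 ± 0.08, adjusted p = 9.52e-07). DUSP6 and SPRY4, whose few fragments are given above, were also called (adjusted p = 0.0119 and 0.00531). The calls of DUSP5 (0.25, adjusted p = 0.0102) and DUSP10 (0.28, adjusted p = 0.0383) were lost with TPM scaling (0.01 and 0.18, adjusted p = 0.893 and 0.320). That of DUSP10 also ended without untreated Huh7-labelled library 2 or 3, untreated HepG2-labelled library 2 or 3 or treated HepG2-labelled library 1 (adjusted p 0.0508 to 0.154). SPRY2 differed by 0.15 ± 0.13 (adjusted p = 0.334), and by -0.09 with TPM scaling.

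Ordered by level, 7 of the genes were highest in treated and second highest in untreated HepG2-labelled libraries: DUSP1, DUSP4, DUSP5, DUSP6, DUSP10, SPRY4 and SPRED1. DUSP2 was highest in untreated HepG2-labelled, then treated HepG2-labelled, untreated Huh7-labelled and treated Huh7-labelled libraries, with no overlap between neighbours. DUSP8 was highest in treated Huh7-labelled, then untreated Huh7-labelled, treated HepG2-labelled and untreated HepG2-labelled libraries, also without overlap, and SPRY2 was in the order treated HepG2-labelled, treated Huh7-labelled, untreated HepG2-labelled and untreated Huh7-labelled. The neighbours that overlapped were the 2 Huh7-labelled groups for DUSP4, SPRY4 and SPRED1, untreated HepG2-labelled with treated Huh7-labelled and treated with untreated Huh7-labelled libraries for DUSP10, and treated Huh7-labelled with untreated HepG2-labelled libraries for SPRY2.

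The MAP kinase phosphatase family has 3 further members, DUSP7, DUSP9 and DUSP16, and the Sprouty and SPRED family 4 (SPRY1, SPRY3, SPRED2 and SPRED3). Those not taken by the naming rule (DUSP7, SPRY3 and SPRED2) are given to complete the families. DUSP9, a cytoplasmic ERK phosphatase, was the most abundant phosphatase transcript of untreated Huh7-labelled libraries. It stood at 56.7, 57.4 and 24.1 FPKM in treated against 80.6, 82.4 and 76.9 FPKM in untreated Huh7-labelled libraries (-0.88 ± 0.26, adjusted p = 0.0210). The third treated library was far below its fellows, and with it left out DUSP9 fell by 0.48 (adjusted p = 0.000203). The call ended without untreated Huh7-labelled library 1 or 2 (adjusted p = 0.0561 and 0.0601) or without the filter (adjusted p = 0.0512), and in a fit of Huh7-labelled libraries alone (adjusted p = 0.134). Its HepG2-labelled average was 27.6 ± 1.41 FPKM with geniposide and 25.6 ± 2.01 FPKM untreated (adjusted p = 0.793), and the lines were not shown to differ in effect (0.99 ± 0.36, adjusted p = 0.0637). DUSP16, a JNK and p38 phosphatase like DUSP8, rose in Huh7-labelled libraries, at 15.2, 17.1 and 18.8 FPKM with geniposide against 9.51, 9.37 and 8.56 FPKM untreated (0.83 ± 0.07, adjusted p = 1.78e-05). It averaged 26.5 ± 0.847 FPKM in treated and 25.6 ± 0.195 FPKM in untreated HepG2-labelled libraries (adjusted p = 0.632), and the difference between the effects was -0.78 ± 0.10 (adjusted p = 0.000365). DUSP7 passed in neither line (adjusted p = 0.0726 and 0.0980), though its effects differed between them (0.39 ± 0.12, adjusted p = 0.0290).

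**Figure D3:**
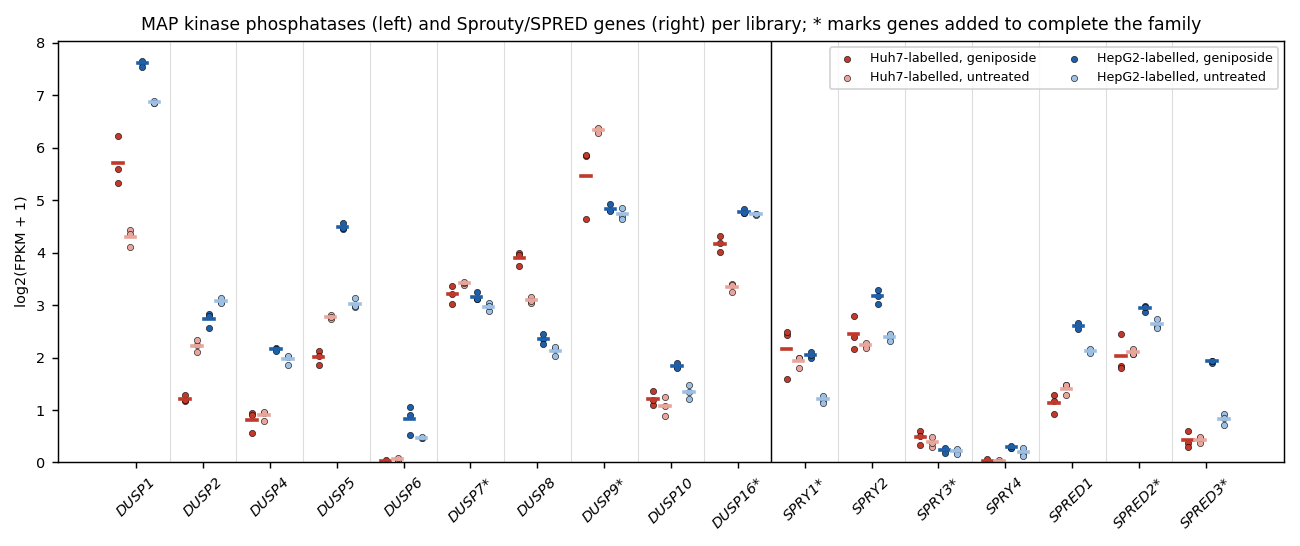
Levels of the 10 phosphatases and 7 Sprouty and SPRED genes as log2(FPKM + 1) (vertical axis). Points are libraries, horizontal marks group means and asterisks genes added to complete the families. DUSP9 tops untreated Huh7-labelled libraries, DUSP1 both HepG2-labelled groups, and SPRED3 separates treated HepG2-labelled libraries (2.72 to 2.84 FPKM) from all others.

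Within the summed FPKM of the 10 phosphatases, a measure that library scaling leaves as it is, DUSP1 had a larger and DUSP9 a smaller share with geniposide in Huh7-labelled libraries. DUSP1 made up 28.4, 31.2 and 50.3% with geniposide and 14.8, 13.9 and 12.4% untreated, and DUSP9 16.4 to 41.2% with geniposide and 57.7 to 59.2% untreated. The third treated library was the extreme of both, and the other treated libraries were also outside the untreated range. DUSP8, DUSP10 and DUSP16, the JNK and p38-selective enzymes, together made up 20.9 to 23.6% with geniposide and 12.6 to 13.5% untreated. In HepG2-labelled libraries DUSP1 made up 65.4 to 66.3% with geniposide and 58.2 to 59.3% untreated, and the JNK and p38-selective group 10.6 to 11.7% with geniposide and 15.1 to 15.9% untreated. The sum itself was 145 ± 6.99 FPKM with geniposide and 137 ± 5.91 FPKM untreated in Huh7-labelled, and 294 ± 9.21 FPKM with geniposide and 197 ± 2.78 FPKM untreated in HepG2-labelled libraries (SD, n = 3 each). No test was run on these shares.

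**Figure D4:**
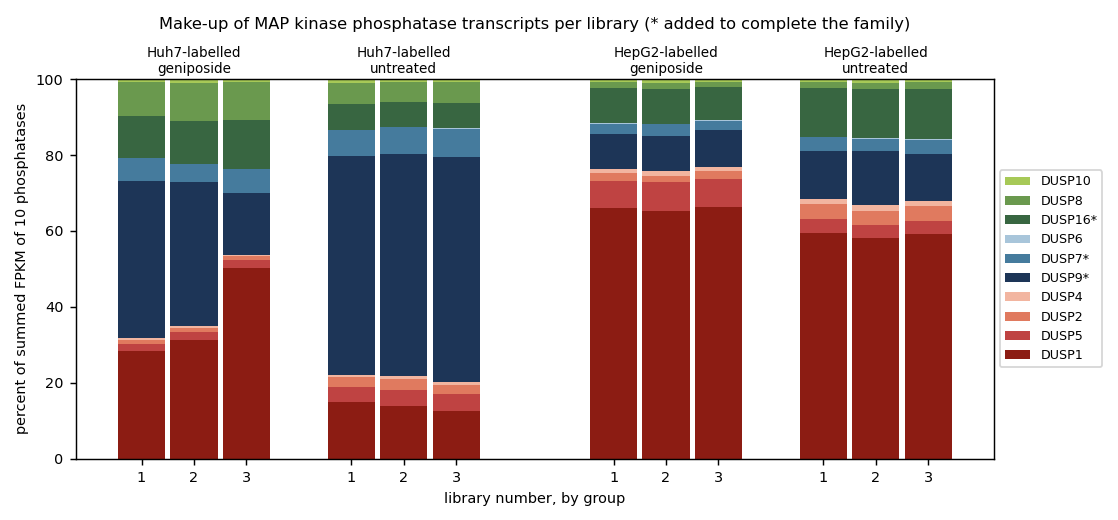
Share of each gene in the summed FPKM of 10 MAP kinase phosphatases (vertical axis, percent) in each library (horizontal axis, numbered within its group). Reds are nuclear inducible, blues cytoplasmic ERK-selective and greens JNK and p38-selective enzymes. DUSP1 takes 28.4 to 50.3% in treated against 12.4 to 14.8% in untreated Huh7-labelled libraries.

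Of the other Sprouty and SPRED genes, SPRY1 and SPRED3 rose in HepG2-labelled libraries. SPRED3 stood at 2.72, 2.84 and 2.84 FPKM with geniposide and at 0.906, 0.798 and 0.651 FPKM untreated (1.09 ± 0.09, adjusted p = 8.81e-06), and SPRY1 averaged 3.14 ± 0.153 FPKM with geniposide and 1.30 ± 0.112 FPKM untreated (0.85 ± 0.19, adjusted p = 0.00463). In Huh7-labelled libraries SPRED3 averaged 0.350 ± 0.153 FPKM with geniposide and 0.354 ± 0.0513 FPKM untreated (adjusted p = 0.964), and SPRY1 stood at 4.42, 4.59 and 1.99 FPKM with geniposide and at 2.50, 2.95 and 2.99 FPKM untreated (adjusted p = 0.380). A difference between the lines passed for SPRED3 (1.10 ± 0.13, adjusted p = 0.000280) and not for SPRY1 (adjusted p = 0.122). SPRED3 passed the filter of 1 FPKM through the treated HepG2-labelled libraries alone, where it was high. Its adjusted p-values are therefore only a description of these libraries. SPRED2 and SPRY3 passed in neither line (adjusted p from 0.111 to 1). Summed over the 7 genes, levels were 13.3 ± 0.732 FPKM with geniposide and 12.2 ± 0.635 FPKM untreated in Huh7-labelled, and 26.1 ± 0.811 FPKM with geniposide and 15.2 ± 0.573 FPKM untreated in HepG2-labelled libraries.

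Around these regulators, 10 lists of 121 pathway genes, drawn up by textbook role, held 108 genes past the filter. In Huh7-labelled libraries 23 rose and 16 fell (median 0.02, all genes 0.00). There 34.5% of all filtered genes were called, 16.4% rising and 18.1% falling. In HepG2-labelled libraries 37 rose and 29 fell (median 0.05, all genes 0.00). The share called there was 42.5% of all filtered genes, 21.0% rising and 21.5% falling. The Huh7-labelled falls numbered 7 without untreated library 2 and 9 without untreated library 3. Of 5 tested ligands 2 rose and 0 fell in the Huh7-labelled line and 2 rose and 1 fell in the HepG2-labelled line. VEGFA, which drives vessel growth, averaged 10.2 ± 0.389 FPKM in treated and 4.65 ± 0.191 FPKM in untreated Huh7-labelled libraries, and 88.3 ± 3.12 FPKM in treated and 31.2 ± 0.826 FPKM in untreated HepG2-labelled libraries (adjusted p = 1.01e-06 and 3.19e-08). The growth factor FGF2 fell in HepG2-labelled libraries to 7.97 ± 0.301 FPKM, against 11.4 ± 0.117 FPKM untreated (adjusted p = 0.00228). In the Huh7-labelled line FGF2 was higher, at 2.96 ± 0.641 FPKM with geniposide and 1.999 ± 0.0486 FPKM untreated (0.39 ± 0.09, adjusted p = 0.00920, but 0.0925 when Huh7-labelled libraries were fitted alone), and its effects differed between the lines (adjusted p = 0.00117).

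Of 10 tested receptors 3 rose and 0 fell in the Huh7-labelled line, where 16.4% of filtered genes rose and 18.1% fell (34.5% called). In the HepG2-labelled line 1 rose and 5 fell, where 21.0% of filtered genes rose and 21.5% fell (42.5% called). The medians of the receptors were 0.04 and -0.18. The 1 that rose in HepG2-labelled libraries was the EGF receptor, EGFR. It averaged 66.9 ± 5.83 FPKM with geniposide and 49.7 ± 2.77 FPKM untreated there (0.42 ± 0.12, adjusted p = 0.0129). FGFR4, the receptor of the bile acid hormone FGF19, averaged 3.90 ± 0.242 FPKM in treated and 9.46 ± 0.814 FPKM in untreated HepG2-labelled libraries (-1.09 ± 0.10, adjusted p = 1.15e-05). In the Huh7-labelled line it was higher, at 20.4 ± 2.95 FPKM with geniposide and 15.8 ± 0.954 FPKM untreated (0.35 ± 0.10, adjusted p = 0.0193), and its effects differed between the lines (adjusted p = 7.78e-05). That rise missed the threshold without untreated Huh7-labelled library 3 or treated Huh7-labelled library 1 or 2 (adjusted p = 0.0748, 0.0543 and 0.0669) and in a fit of the line alone (adjusted p = 0.0879). In HepG2-labelled libraries the insulin-like growth factor receptor IGF1R averaged 11.3 ± 0.243 FPKM with geniposide and 19.3 ± 0.569 FPKM untreated (adjusted p = 0.00485). The EGF receptor relative ERBB2 averaged 6.15 ± 0.428 FPKM with geniposide and 9.83 ± 0.322 FPKM untreated in the same HepG2-labelled libraries (adjusted p = 0.000923). The insulin receptor INSR averaged 6.52 ± 0.431 FPKM in treated and 4.52 ± 0.348 FPKM in untreated Huh7-labelled libraries (adjusted p = 0.00159).

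Of 22 genes of the RAS-ERK cascade 4 rose and 3 fell in the Huh7-labelled line, where 16.4% of filtered genes rose and 18.1% fell. In the HepG2-labelled line 6 rose and 8 fell, where 21.0% of filtered genes rose and 21.5% fell. The medians of the cascade were -0.02 and -0.12. The adaptor SHC1 was at 32.3 ± 2.48 FPKM in treated and 49.4 ± 0.535 FPKM in untreated HepG2-labelled libraries (adjusted p = 6.45e-05), and the phosphatase PTPN11, which passes receptor signals on to RAS, at 27.6 ± 0.666 FPKM with geniposide and 42.8 ± 1.42 FPKM untreated (adjusted p = 0.000850). MAP2K1, the kinase that activates ERK, rose by 0.42 ± 0.09 on the log2 scale in HepG2-labelled libraries (adjusted p = 0.00292). Beside the same shares of filtered genes, 2 of 16 genes of the JNK and p38 cascades rose and 4 fell in the Huh7-labelled line. In the HepG2-labelled line 4 rose and 7 fell (medians -0.04 and -0.14). The p38-activated kinase MAPKAPK3 fell in both, to 15.6 ± 4.18 FPKM against 27.4 ± 0.612 FPKM untreated in the Huh7-labelled line (adjusted p = 0.00228) and to 7.61 ± 0.605 FPKM against 12.4 ± 0.577 FPKM untreated in the HepG2-labelled line (adjusted p = 0.00614).

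Of 12 other inhibitors of receptors and RAS 2 rose and 2 fell in the Huh7-labelled line, where 16.4% of filtered genes rose and 18.1% fell. In the HepG2-labelled line 7 rose and 2 fell, where 21.0% of filtered genes rose and 21.5% fell. The medians of these inhibitors were -0.03 and 0.24. RASA2, which returns RAS to its inactive form, averaged 6.72 ± 0.275 FPKM in treated and 3.53 ± 0.233 FPKM in untreated HepG2-labelled libraries (adjusted p = 4.15e-06), and ERRFI1, a feedback inhibitor of the EGF receptor, 18.4 ± 1.13 FPKM with geniposide and 10.8 ± 1.20 FPKM untreated (adjusted p = 0.000236). Both also differed in effect between the lines (adjusted p = 7.89e-05 and 0.000727). ERRFI1 was at 7.04 ± 1.08 FPKM in treated and 8.78 ± 0.244 FPKM in untreated libraries of the Huh7-labelled line (-0.29 ± 0.10, adjusted p = 0.0493). Leaving out any single library except treated Huh7-labelled library 1 or 2 or untreated HepG2-labelled library 2 ended that call (adjusted p 0.0584 to 0.130). In Huh7-labelled libraries the ubiquitin ligase CBL, which tags receptors for breakdown, was at 17.1 ± 1.22 FPKM with geniposide and 12.3 ± 0.625 FPKM untreated (adjusted p = 0.00132), and the RAF inhibitor PEBP1 at 86.8 ± 17.8 FPKM with geniposide and 140.5 ± 2.97 FPKM untreated (adjusted p = 0.00126). Both were called in the same direction in HepG2-labelled libraries. There CBL averaged 14.6 ± 1.42 FPKM with geniposide and 11.9 ± 0.652 FPKM untreated (adjusted p = 0.0156). PEBP1 averaged 179.8 ± 5.87 FPKM with geniposide and 232.8 ± 10.3 FPKM untreated in those libraries (adjusted p = 0.0302). The lines were not shown to differ in effect for CBL or PEBP1 (adjusted p = 0.255 and 0.165).

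Of 16 transcripts known to depend on ERK 2 rose and 3 fell in the Huh7-labelled line, where 16.4% of filtered genes rose and 18.1% fell. In the HepG2-labelled line 7 rose and 3 fell, where 21.0% of filtered genes rose and 21.5% fell. The medians of these transcripts were 0.01 and 0.19. The early transcription factor EGR1 averaged 6.12 ± 0.657 FPKM in treated and 1.64 ± 0.148 FPKM in untreated HepG2-labelled libraries (1.43 ± 0.09, adjusted p = 1.22e-06), and the survival gene IER3 275 ± 16.3 FPKM with geniposide and 127 ± 8.28 FPKM untreated (1.10 ± 0.11, adjusted p = 2.00e-05). MYC, a growth-promoting transcription factor, was lower in treated Huh7-labelled libraries, at 50.2 ± 10.1 FPKM, than in untreated ones, at 78.5 ± 4.11 FPKM (adjusted p = 0.00135). Between the untreated lines, 15 of the 16 were higher and 1 lower in HepG2-labelled libraries (median 1.94). Of all filtered genes 36.1% were higher and 35.8% lower there (median -0.01). Beside the shares with geniposide given above, 5 of 10 transcripts linked to stress kinases and p53 rose and 2 fell in the Huh7-labelled line. In the HepG2-labelled line 4 rose and 0 fell (medians 0.43 and 0.19). GADD45A, a growth arrest gene that feeds into p38 and JNK, was at 55.2 ± 11.4 FPKM in treated and 16.6 ± 1.14 FPKM in untreated Huh7-labelled libraries (1.66 ± 0.12, adjusted p = 7.51e-06).

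**Figure D5:**
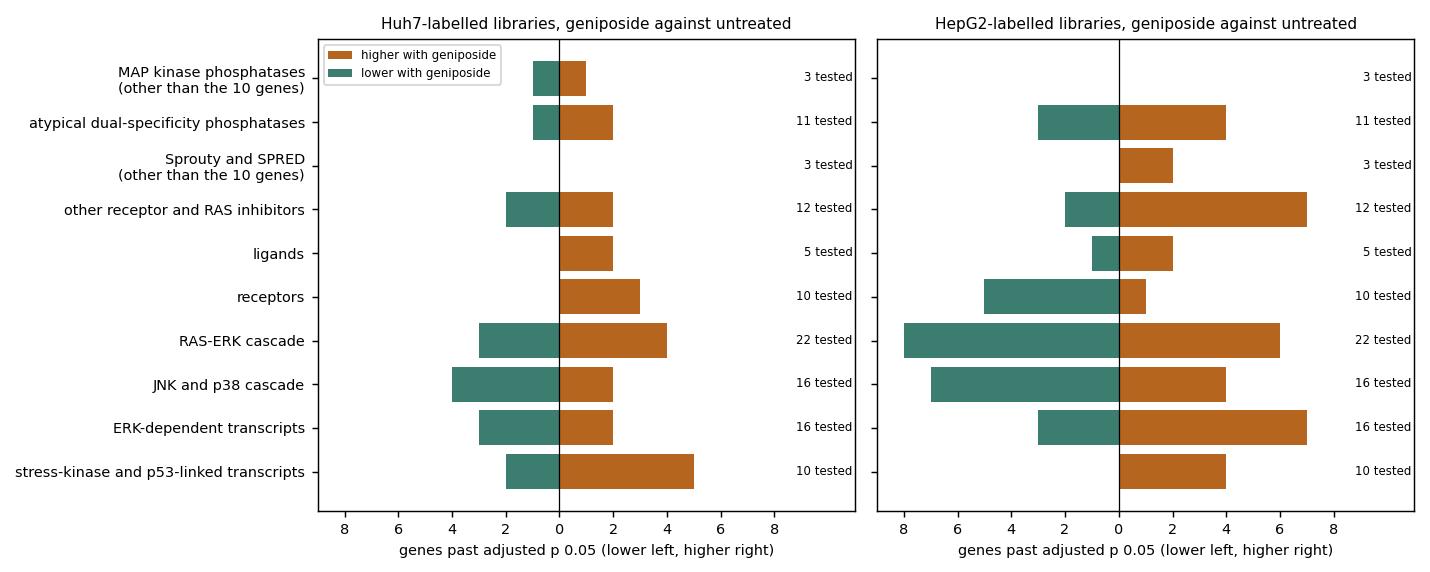
Genes called in each of 10 pathway lists (horizontal axis: number lower with geniposide to the left, higher to the right; the number tested is at the right edge). Huh7-labelled libraries are in the left panel and HepG2-labelled in the right. Other receptor and RAS inhibitors had 7 rises and 2 falls in HepG2-labelled libraries, and receptors 1 rise and 5 falls. Of all filtered genes 21.0% rose and 21.5% fell there.

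The patterns most like those of DUSP1, DUSP6 and SPRY4 were sought among 12142 protein-coding genes past the filter, as the smallest root mean square difference of log2(FPKM + 1) over the 12 samples after each line's mean was taken off. For DUSP1, whose own values varied by 0.60 by this measure, they were the translation start factor EIF1 (0.12), CSRNP1 (0.16) and KLF10 (0.16). EIF1 averaged 196 FPKM with geniposide and 84.6 FPKM untreated in Huh7-labelled libraries, and 125 FPKM with geniposide and 73.4 FPKM untreated in HepG2-labelled libraries. For DUSP6, which varied by 0.17, they were STXBP3 (0.08), PYROXD2 (0.08) and MMP28 (0.08). For SPRY4 they were PTPN2, SLC39A8 and MBD1 at 0.04 each, beside a variation of 0.05 of its own, so that its neighbours are hardly closer than a flat gene. All these values share their 12 libraries.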

How the data were processed

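Poly(A) RNA of 12 samples was sequenced. FPKM values were computed by the authors and are used as deposited, and each of 12 columns was matched to its sample by name. The submitters' processing notes name CASAVA, fastp and build hg38. The aligner and the counter: not given in the sources used here. All 10 genes had the coordinates of GENCODE 29. FPKM times gene length gave whole multiples of a step per library for 100% of values within 0.05 fragments, which yields fragments per gene. A count of 0 allows up to 3 fragments (0.161 to 0.212 FPKM in a gene of 1000 bases), counting error only.

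limma 3.58.1 in R 4.3.3 was fitted to log2(FPKM + 1) with 4 group means, 8 residual degrees of freedom, an intensity trend and two-sided tests, adjusted by Benjamini-Hochberg with a threshold of 0.05 over 15518 genes with at least 1 FPKM in at least 3 samples. Genes below that filter come from the fit to 35698 genes above 0. The lists and the genes named from them (up to 3 per list, comparison and direction by adjusted p) were, like the 10 genes, chosen with earlier results of these data known. Not every gene so taken is reported here. Libraries of a group all differed beyond sampling noise (chi-square over its degrees of freedom 2.20 to 6.58, and 43.4 and 44.9 for pairs with the third treated Huh7-labelled library). The fit was also run on simulated counts. Apart from the changes put in, these shared a mean profile over all libraries and had no outlying library. They cannot show how the fit behaves with the third treated Huh7-labelled library. Alternatives were a pseudocount of 0.1, no filter or 5 FPKM, TPM scaling, voom on recovered fragments with TMM, each line alone, a replicate block and leaving out each sample.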

Additional observations from a re-analysis of the deposited data

Results flagged for a closer look

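The effect of geniposide differed between the lines, by the interaction contrast of the limma fit over all genes (HepG2-labelled minus Huh7-labelled), for 5 of the 10 genes. DUSP5 differed by 2.23 (adjusted p = 1.50e-06). All its treated HepG2-labelled libraries lay above, and all its treated Huh7-labelled libraries below, the untreated libraries of the same line. SPRED1 differed by 0.76 (adjusted p = 0.00219). DUSP2 differed by 0.65 (adjusted p = 0.00255), with falls in both lines that were larger in Huh7-labelled libraries. DUSP8 differed by -0.58 (adjusted p = 0.00438). SPRY2 differed by 0.57 (adjusted p = 0.0448), a call that held in 4 of 19 fits.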

How the results depend on the processing

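Of the 10 genes, the calls of DUSP1, DUSP2 and DUSP5 with geniposide in both lines, of DUSP8 in Huh7-labelled and of DUSP10, SPRY2 and SPRED1 in HepG2-labelled libraries held under every alternative run, and no called change reversed. A fit of Huh7-labelled libraries alone called 3266 genes there in place of 5357, and 12 risen and 6 fallen pathway genes in place of 23 and 16. Fallen pathway genes there numbered 9 with no filter and 10 with TPM scaling. A filter of 5 FPKM left 7220 calls between the untreated lines in place of 11146. Leaving out each library in turn gave 1 to 2 of the 10 genes with a lower effect in HepG2-labelled libraries (2 without treated Huh7-labelled library 1 or 3) and 7 to 19 fallen pathway genes in Huh7-labelled libraries (7 and 9 without untreated library 2 or 3, 19 without the third treated one). The cause of these shifts beyond the fewer genes or samples was not tested. Replicate numbers did not pair the samples (correlations of same-numbered deviations -0.06 to 0.02), and the replicate block gave 4520 and 5952 calls in Huh7-labelled and HepG2-labelled libraries. With the block the calls of DUSP6 in HepG2-labelled (adjusted p = 0.0834) and SPRED1 in Huh7-labelled libraries (adjusted p = 0.0757), of SPRY2 for the difference (adjusted p = 0.0700) and of DUSP10 between the untreated lines (adjusted p = 0.0579) were lost. With a filter of 5 FPKM, genes under it have no value. At this depth a fall or a small rise of DUSP6 or SPRY4 was not detectable in Huh7-labelled libraries.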

Other observations

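Atypical dual-specificity phosphatases, mostly small enzymes without the kinase-binding domain of the MAP kinase phosphatases, changed in both directions. The list also holds STYX and STYXL1, to which that description does not apply in full. Of 11 tested, 2 rose and 1 fell in the Huh7-labelled line and 4 rose and 3 fell in the HepG2-labelled line (medians 0.02 and -0.05, all genes 0.00), beside 34.5% and 42.5% of all genes called. DUSP12 averaged 17.3 ± 1.67 FPKM with geniposide and 10.6 ± 0.533 FPKM untreated in Huh7-labelled libraries (0.65 ± 0.08, adjusted p = 0.000196), and 10.4 ± 1.02 FPKM in treated and 13.2 ± 0.712 FPKM in untreated HepG2-labelled ones (-0.32 ± 0.08, adjusted p = 0.00895). The difference between these effects passed (adjusted p = 0.000256). DUSP23 averaged 24.5 ± 1.63 FPKM in treated and 17.1 ± 1.52 FPKM in untreated HepG2-labelled libraries (adjusted p = 0.000216), and DUSP22, an activator of JNK, 5.00 ± 0.210 FPKM with geniposide and 3.07 ± 0.169 FPKM untreated (adjusted p = 0.000525). The pseudophosphatase STYX, which keeps ERK in the nucleus, averaged 4.62 ± 0.275 FPKM with geniposide and 6.59 ± 0.452 FPKM untreated in the same libraries (adjusted p = 0.000972).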
